A study of Mus musculus with 68 samples.

Results

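The genes described are 44 interferon-stimulated genes and regulators of the interferon response, taken by name from a fixed list and read from the expression tables of mouse embryonic fibroblasts (MEFs). Of the 44 genes, 39 were listed among the 13197 genes of the founder strain tables and 37 among the 12803 genes of the F1 tables. Oasl2, Rsad2, Igtp, Iigp1 and Psmb9 were in neither set, and Ifit1 and Ifitm1 had values for the strains only, not for the crosses.

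The study compared primary MEFs from 8 inbred founder strains, namely 129S1Sv/ImJ (129), A/J (A), C57BL/6J (B6), NOD/ShiLtJ (NOD), NZO/H1LtJ (NZO), CAST/EiJ (CAST), PWK/PhJ (PWK) and WSB/EiJ (WSB), and from 5 F1 crosses of a B6 mother with a 129, NOD, NZO, CAST or WSB father (x129, xNOD, xNZO, xCAST, xWSB). Cells received tunicamycin (TM) at 2 ug/ml or 0.1% DMSO (control) for 4 h. TM blocks protein glycosylation and causes stress of the endoplasmic reticulum (ER). RNA was sequenced from 18 control and 22 TM libraries of the founders and from 14 control and 14 TM libraries of the crosses, with 2 or 3 libraries in each group. The MEFs of a genotype were pooled from several female embryos of 1 litter, so the spread between libraries is that of cultures of 1 pool of cells, and a difference between strains cannot be told apart from a difference between litters.

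Interferons are secreted proteins that warn cells of infection. Type I interferon binds a receptor made of Ifnar1 and Ifnar2 and activates a complex that includes Stat2 and Irf9, which binds interferon-stimulated response elements in promoters. The induced genes encode sensors of viral RNA, proteins that block viral entry and translation, GTPases that attack vacuoles of pathogens, and the machinery that loads peptides on MHC class I. Fibroblasts hold a low basal level of many of these genes without infection.

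The level of a gene is given in CPM, its reads scaled to a common library total after adjustment of each library by the trimmed mean of M values (TMM). It was not divided by gene length, so levels are compared between libraries and not between genes, and the founder and F1 tables were scaled separately, so levels are compared only within a set. Recovered reads were 7091923 to 21530282 in the founder libraries and 6442976 to 29528457 in the F1 libraries. The fibroblast markers fixed for the check were all listed, 10 of 10, with a summed level of 16941 to 54704 in the founder libraries. All 5 ER stress genes checked rose with TM in both sets (limma adjusted p at most 5.88e-17 in the founders and 2.11e-14 in the crosses), Hspa5, the ER chaperone BiP, by 7.08 fold in the founders. Of 14 myeloid markers 12 were listed, and their summed level was 8.23 to 71.5 in founder controls, with the highest values in A (62.1 to 71.5) and the lowest in a WSB library. Lyz2 alone reached 43.1 in A control replicate 2. Sums are not compared between marker lists. The WSB control libraries, replicates 2 and 3, differed from each other: of 38 members compared, 13 were more than 2 fold higher in replicate 2 and 0 lower, against 6.51% and 1.2% of all genes, and its myeloid sum was 48.3 against 8.23. These libraries also differed in their sums of endothelial markers (3.24 and 19.9, 5 of 5 listed) and epithelial markers (36.9 and 103, 4 of 5 listed). Over all founder controls the endothelial sum was 3.13 to 19.9 and the epithelial sum 32 to 132, the latter at 105 to 119 in PWK and 60.6 to 132 in A against 32 to 55.6 in 129, B6, CAST, NOD and NZO. The part of these other cell types in any value below was not tested, and in bulk RNA fewer cells of a type and less RNA per cell cannot be told apart.

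Promoters are shown for the genes whose basal level differed most clearly between strains and whose window held the core of an interferon-stimulated response element. The windows run from 250 bases before to 50 bases after the RefSeq start of the GRCm38.p6 reference, which is a B6 sequence, and not the sequence of the other strains. Each is printed 5′ to 3′ on the strand of the gene, with matches to the core motif, GAAA and GAAA with any 2 bases between them, on either strand in capitals (overlapping matches run together).
Irgm1, chr11:48871371-48871670, minus strand: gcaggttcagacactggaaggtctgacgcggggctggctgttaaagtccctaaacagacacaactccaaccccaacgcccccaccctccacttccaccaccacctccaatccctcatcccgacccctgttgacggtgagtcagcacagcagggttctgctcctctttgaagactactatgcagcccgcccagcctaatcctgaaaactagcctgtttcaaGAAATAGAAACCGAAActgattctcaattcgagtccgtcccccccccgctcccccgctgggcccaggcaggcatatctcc
Ddx58, chr4:40239776-40240075, minus strand: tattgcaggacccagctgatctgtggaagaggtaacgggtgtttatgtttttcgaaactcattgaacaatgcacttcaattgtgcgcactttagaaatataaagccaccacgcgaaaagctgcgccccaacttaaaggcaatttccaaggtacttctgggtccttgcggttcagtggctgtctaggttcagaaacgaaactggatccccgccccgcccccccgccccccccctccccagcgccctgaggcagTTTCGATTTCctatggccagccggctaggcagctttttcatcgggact
Gbp2, chr3:142620413-142620712, plus strand: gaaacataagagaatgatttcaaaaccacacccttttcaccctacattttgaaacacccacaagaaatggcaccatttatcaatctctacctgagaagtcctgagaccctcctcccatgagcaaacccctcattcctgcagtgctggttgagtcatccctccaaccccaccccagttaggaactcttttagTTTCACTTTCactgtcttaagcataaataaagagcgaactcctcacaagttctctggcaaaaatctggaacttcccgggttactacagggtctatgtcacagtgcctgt
Gbp3, chr3:142559794-142560093, plus strand: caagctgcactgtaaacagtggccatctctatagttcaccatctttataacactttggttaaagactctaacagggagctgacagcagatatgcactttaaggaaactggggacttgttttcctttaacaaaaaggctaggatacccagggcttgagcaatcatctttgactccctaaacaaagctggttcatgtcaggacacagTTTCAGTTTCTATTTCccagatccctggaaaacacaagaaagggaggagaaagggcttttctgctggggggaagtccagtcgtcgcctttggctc
Gbp7, chr3:142530086-142530385, plus strand: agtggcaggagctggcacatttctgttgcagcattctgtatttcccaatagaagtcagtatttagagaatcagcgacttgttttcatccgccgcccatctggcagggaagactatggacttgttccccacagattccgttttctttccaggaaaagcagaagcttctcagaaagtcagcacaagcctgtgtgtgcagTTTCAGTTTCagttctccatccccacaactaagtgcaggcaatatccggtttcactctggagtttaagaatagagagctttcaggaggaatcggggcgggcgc
The match lay 59 bases before the start in Gbp2, 53 in Gbp7, 45 and 39 in Gbp3 and 30 and 24 in Irgm1, while that of Ddx58 lay 2 bases after the start. A promoter window was found for 38 of the 44 members, and 18 of these 38 (47.4%) held this core motif against 3.99% of the 27025 genes with a window. The palindrome of TTC and GAA with any 3 bases between them, searched in the same way, was in 15 of the 38 (39.5%) against 9.55% of genes. Both are descriptions of letters in the reference, and neither shows that a factor was bound. Of the other genes with the clearest strain differences, Trim25 and Ifit2 held no match to the core motif in this window.

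The first comparison asked which members differed between strains without ER stress. Irgm1, a GTPase of the immunity-related family that acts in autophagy and pathogen control, had the widest range of the 8 members with the smallest adjusted p between strains. Ddx58 (RIG-I, a sensor of viral RNA) and Trim25 (a ubiquitin ligase that activates RIG-I) also differed, as did 3 guanylate-binding proteins, Gbp2, Gbp3 and Gbp7. Over the 39 members tested, 11 (28.2%) passed an FDR of 1% with at least 1.5 fold between the highest and lowest strain mean, against 35.0% of all 13169 genes tested (limma F test). The members' share was near that of all genes. The 11 were Irgm1, Ddx58, Trim25, Gbp2, Usp18, Gbp3, Ifit2, Gbp7, Irf1, Irf3 and Ifitm1. The count depended on single libraries: it was 6 without CAST control replicate 1 or without PWK control replicate 1, 7 without CAST control replicate 3, either NZO control, or PWK control replicate 2 or 3, and 17 without WSB control replicate 2.

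Irgm1 (chromosome 11, 48861968 to 48871683, minus strand) read 15.4 and 16.5 in the 129 controls, 17.5, 24 and 25.5 in A, 19.8 and 19.9 in B6, 21.2 and 22.8 in NOD, and 32.2 and 34.3 in NZO. It read 9.18 and 8.68 in WSB, but 0.88 and 1.73 in CAST and 0.621, 0.921 and 1.18 in PWK. The CAST and PWK libraries thus lay below every other library, WSB lay between, and no library of NZO overlapped another strain. NZO and PWK, at the ends of the order, differed by 34 fold on the log2(value + 0.1) scale (limma adjusted p = 1.87e-09, from 1.21e-10 to 5.2e-08 over the 26 alternatives). Against the mean of the other 7 strains, Irgm1 was 9.29 fold lower in CAST (limma adjusted p = 3.81e-08) and 13.3 fold lower in PWK (adjusted p = 9.44e-10). It was higher in NZO (4.24 fold), A (2.66 fold), NOD (2.65 fold) and B6 (2.36 fold). The CAST values rest on 17 and 21 reads and the PWK values on 7, 18 and 20.

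Ddx58 (chromosome 4, 40203773 to 40239828) followed another order. Its control level was 4.76 and 5.02 in CAST, 12.8 and 11.1 in B6, 13.2 and 13.6 in NOD, 13.5, 14.3 and 16.1 in A, 17.2 and 14.2 in 129, 15.9 and 15.7 in WSB, 17.1 and 16.7 in NZO, and 24.5, 26.7 and 23.8 in PWK. CAST was below and PWK above all other libraries, with the 6 other strains between them and in part overlapping. The difference was 3.18 fold lower in CAST (limma adjusted p = 2.98e-08) and 1.99 fold higher in PWK (adjusted p = 7.14e-07) against the other 7 strains. CAST and PWK, both low for Irgm1, were therefore at opposite ends for Ddx58. Ifih1 (MDA5), a second RNA sensor, was higher in A, at 3.14, 3.37 and 3.63 against 1.23 to 2.48 in the other strains (1.84 fold, limma adjusted p = 0.00328), although its test over all strains did not pass (adjusted p = 0.0236). Dhx58 (LGP2), the third of the family, ranged from 0.901 to 2.64 and did not pass (adjusted p = 0.687).

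**Figure D1:**
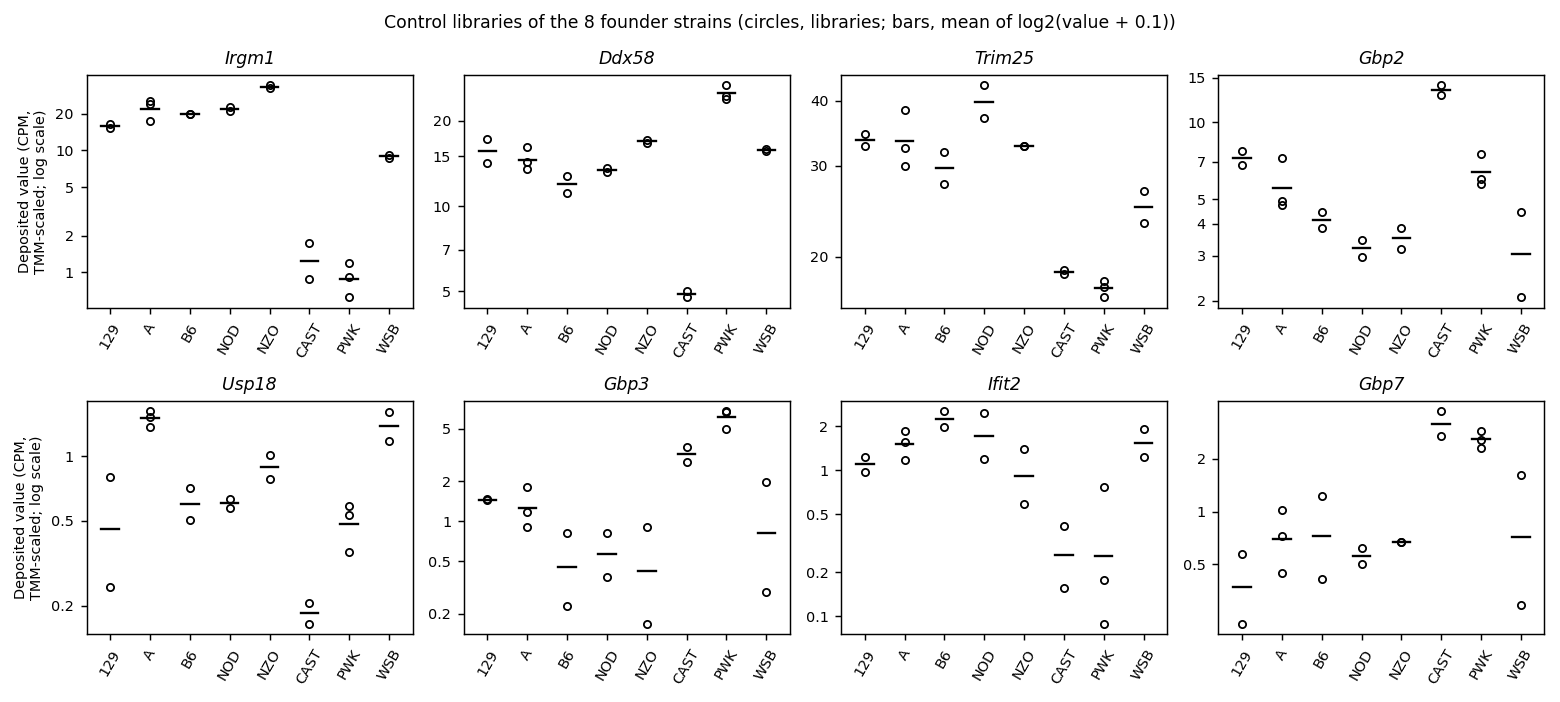
Control values of the 8 members with the smallest adjusted p for a strain difference, in each founder library (circles; CPM, TMM-scaled, log axis), with the mean of log2(value + 0.1) per strain as bars. Irgm1 lies below 2 in CAST and PWK and above 8 elsewhere, and Gbp2 is highest in CAST.

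Among the ISG15 and ubiquitin genes, Trim25 (chromosome 11, 88999376 to 89020293) read 18.5 and 18.9 in CAST and 16.7, 18 and 17.5 in PWK. It read 26.8 and 23.2 in WSB, 27.7 and 31.9 in B6, 32.7 and 32.8 in NZO, 30, 32.4 and 38.4 in A, 32.8 and 34.6 in 129, and 37 and 42.9 in NOD. CAST and PWK were below all other strains by 1.57 and 1.7 fold against the respective other 7 (limma adjusted p = 0.000288 and 8.41e-06), and NOD was 1.51 fold higher (adjusted p = 0.00186). Usp18, the protease that removes ISG15 and dampens interferon signalling, was low throughout, with 2 to 27 reads a control library. It read 0.207 and 0.165 in CAST, 0.804 and 0.246 in 129, 0.532, 0.358 and 0.588 in PWK, 0.574 and 0.631 in NOD, 0.506 and 0.709 in B6, 0.786 and 1.01 in NZO, 1.61 and 1.18 in WSB, and 1.62, 1.37 and 1.53 in A. Usp18 was 2.36 fold higher in A (limma adjusted p = 0.00393) and 3.05 fold lower in CAST (adjusted p = 0.00146). Isg15, the ubiquitin-like modifier itself, was also higher in A, at 4.13, 2.28 and 2.49 (2.28 fold against the other 7, limma adjusted p = 0.00645), although its test over all strains did not pass (adjusted p = 0.0108). A, higher in Irgm1, Isg15, Usp18 and Ifih1, also had the highest myeloid sum. Irgm1 was also higher in B6, NZO and NOD, with control myeloid sums of 42.3 to 45.9, 32.9 to 37.9 and 12.6 to 13.4. The part of these cells in these levels was not tested.

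The guanylate-binding proteins, GTPases that coat pathogen vacuoles, differed between strains. Gbp2 (chromosome 3, 142620602 to 142638008) read 14 and 12.8 in CAST, above 6.83 and 7.7 in 129, 7.54, 5.73 and 6 in PWK, 7.27, 4.92 and 4.76 in A, 3.87 and 4.46 in B6, 3.2 and 3.86 in NZO, 2.96 and 3.47 in NOD, and 4.47 and 2.06 in WSB. In CAST it was 2.94 fold higher than in the other 7 strains (limma adjusted p = 9.91e-05). Gbp3 (chromosome 3, 142560026 to 142573209) read 6.74, 6.66 and 5 in PWK and 3.63 and 2.8 in CAST, against 0.168 to 1.99 in the other strains. The lowest of these, an NZO library, held 2 reads. Gbp3 was 6.04 fold higher in PWK (limma adjusted p = 0.000395). Its difference over strains was lost when PWK control replicate 1 was left out (limma adjusted p = 0.0102). The epithelial sum was 105 to 119 in PWK, but 43.3 to 52.8 in CAST and 60.6 to 132 in A, where Gbp3 did not exceed 1.99. The part of epithelial cells in the Gbp3 level was not tested. Gbp7 (chromosome 3, 142530342 to 142550149) read 2.69 and 3.71 in CAST and 2.31, 2.56 and 2.88 in PWK, against 0.23 to 1.61 elsewhere, with the 1.61 from WSB control replicate 2. It was 3.79 fold higher in CAST and 3.02 fold higher in PWK (limma adjusted p = 0.00507 and 0.00446), but its test over strains missed the threshold in 8 of the 18 fits that left out a library (adjusted p up to 0.0222). These 3 genes are neighbours on chromosome 3 and similar in sequence, and reads that fit more than 1 gene could move between them or be lost. Irgm2, the other listed GTPase, overlaps Igtp and did not pass (limma adjusted p = 0.893).

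Of the antiviral effectors, Ifit2 (chromosome 19, 34550694 to 34576419), which binds viral RNA, was low in CAST (0.155 and 0.412) and PWK (0.0887, 0.768 and 0.177). It read 0.976 and 1.23 in 129, 1.17, 1.55 and 1.87 in A, 1.98 and 2.53 in B6, 1.2 and 2.46 in NOD, 1.4 and 0.587 in NZO, and 1.24 and 1.91 in WSB, so the highest PWK library overlapped NZO. Against the other 7 strains Ifit2 was 3.47 fold lower in CAST (limma adjusted p = 0.00943) and 3.52 fold lower in PWK (adjusted p = 0.0022), on as few as 1 read in a library. The test over strains was lost in 3 of 18 fits that left out a library (adjusted p up to 0.0146). Ifitm1, a membrane protein that blocks viral entry, read 6.56, 5.89 and 6.36 in PWK, 6.9 fold above the other 7 strains (limma adjusted p = 0.00151). The other strains read 0.294 to 2.8, except WSB control replicate 2 at 9.55. The abundant relatives Ifitm2 and Ifitm3 did not pass between strains (limma adjusted p = 0.711 and 0.0754). Adar, Samhd1, Eif2ak2 (PKR), Bst2 (tetherin), Ifi35, Xaf1, Ifit1 and Ifit3 did not pass either, with strain means that spanned from 1.23 fold in Adar to 4.36 fold in Ifit1, a gene with a median of 5.5 reads.

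**Figure D2:**
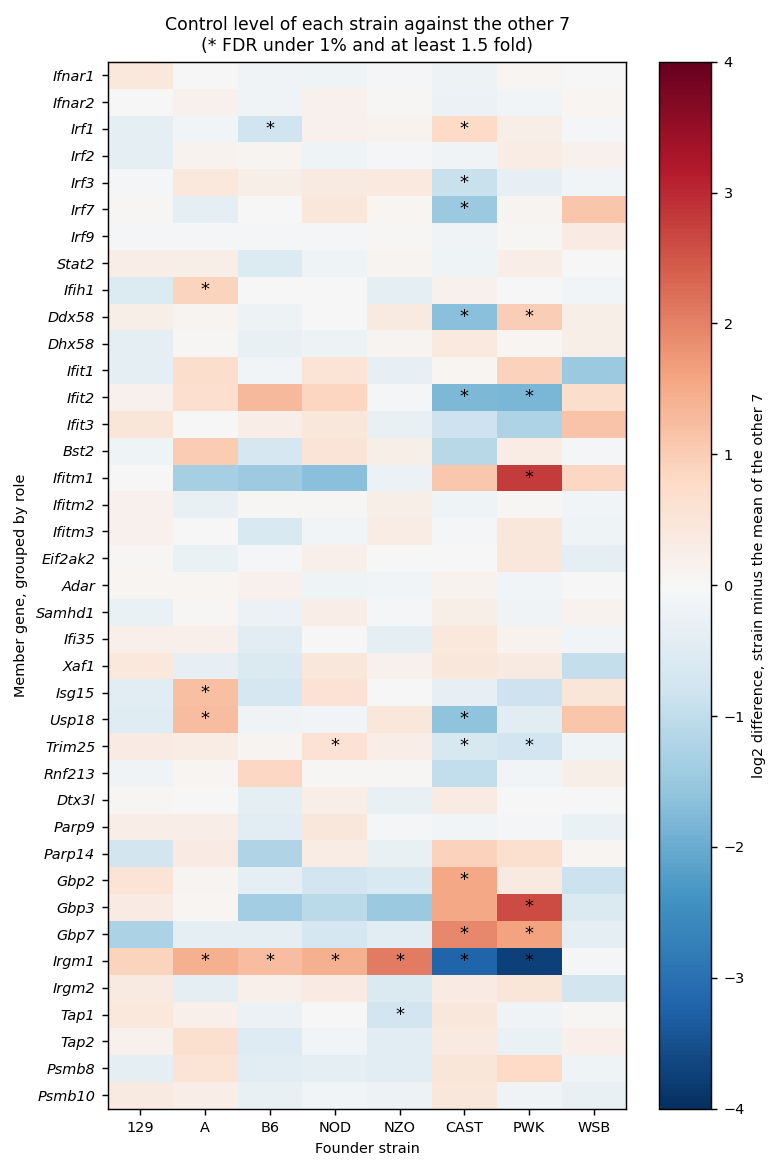
Log2 difference of each founder strain from the mean of the other 7 strains in control libraries (limma, log2(value + 0.1)) for the 39 listed members in order of role, with asterisks at an FDR under 1% and at least 1.5 fold. The largest differences are the falls of Irgm1 in CAST and PWK, at -3.22 and -3.73.

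Of the 8 regulators upstream of these genes, Irf1 and Irf3 passed over strains. Irf1, a factor induced by interferon gamma, was highest in CAST (8.34 and 11.2) and lowest in B6 (3.82 and 3.44), by 1.73 fold higher and 1.74 fold lower than the other 7 (limma adjusted p = 0.00441 and 0.00937). Irf3, which acts below the RNA sensors, was 1.84 fold lower in CAST at 17.8 and 17.6 (limma adjusted p = 0.00206), and the gene overlaps Bcl2l12 on the opposite strand. Irf7 (chromosome 7, 141262706 to 141266481), which amplifies the response, read 0.466 and 0.247 in CAST, 2.77 fold below the other strains (limma adjusted p = 0.00376). Irf7 was low throughout, with 3 to 29 reads a founder control library. It read 1.26 and 0.819 in 129, 0.988, 0.638 and 0.68 in A, 0.874 and 1.11 in B6, 1.39 and 1.26 in NOD, 1.18 and 0.923 in NZO, 0.887, 1.28 and 1.06 in PWK, and 3.47 and 1.18 in WSB. CAST was below every other library, and the high WSB value was again that of replicate 2. The test of Irf7 over strains did not pass (limma adjusted p = 0.0191) but did without WSB control replicate 3 (adjusted p = 0.00157). Stat2, Irf9, Irf2, Ifnar1 and Ifnar2 did not pass, with adjusted p from 0.0222 (Stat2) to 0.541 (Irf9). In antigen processing no member passed over strains, and Tap1, a peptide transporter subunit, was 1.7 fold lower in NZO (limma adjusted p = 0.00866), where it read 5 and 5.62. Tap1 and Psmb9, and Dtx3l and Parp9, overlap on opposite strands, so in counts not stated to use strand their reads could be shared.

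Counted by strain, CAST had 3 members higher and 7 lower than the other 7 strains (7.69% and 17.9% of 39, against 5.63% and 7.77% of all genes) and PWK 4 higher and 3 lower (10.3% and 7.69%, against 7.95% and 7.47%). A had 4 higher (10.3%, against 4.10%) and 0 lower (4.20% of all genes). B6 had 1 higher and 1 lower (2.56% and 2.56%, against 2.32% and 2.43% of all genes). NOD had 2 higher and 0 lower (5.13% and 0%, against 2.28% and 2.19%), and NZO 1 higher and 1 lower (2.56% and 2.56%, against 2.52% and 1.36%). No member passed in 129 (3.28% higher and 2.80% lower over all genes) or WSB (3.34% and 3.83%). At an unadjusted p under 0.05 there were 5 higher and 3 lower in 129 and 4 higher and 4 lower in WSB. The share of all genes at that unadjusted limit was not counted. The 12 lower calls became 6 without either CAST control and 22 without WSB control replicate 2. Median differences of the members from the other strains were small, from -0.22 in B6 to 0.12 in A on the log2 scale, beside medians over all genes of -0.01 to 0.02.

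The second comparison asked whether ER stress changed these genes. With TM, no member rose past 1.5 fold in the mean over the 8 strains, against 6.04% of all genes, and 3 of 39 fell (7.69%, against 5.41% of all genes). Those that fell were Dhx58, Ifitm2 and Stat2. At an unadjusted p under 0.05, 7 members were higher and 10 lower, and edgeR on recovered reads also called 0 raised. Including changes below 1.5 fold at an FDR of 1%, 4 members were higher and 8 lower. The shares of all genes at these looser limits were not counted, so neither count is read as particular to the members. The median change of the members was -0.05 on the log2 scale, beside -0.04 for all genes. The 3 calls became 5 without WSB control replicate 3.

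Stat2 (chromosome 10, 128270559 to 128292849), the signal transducer that carries the type I signal to the promoter, read 11.8 and 15 in 129 controls and 4.38, 7.8 and 8.72 with TM, 12, 12.7 and 14.6 against 9.64, 3.34 and 9.93 in A, and 9.29 and 7.09 against 7.64 and 6.54 in B6. It read 9.58 and 10.5 against 6.81 and 6.8 in CAST, 9.18 and 11 against 9.97, 9.98 and 9.38 in NOD, and 12.6 and 11.5 against 7.38, 8.41 and 9.93 in NZO. In PWK it read 14.5, 11.9 and 13.2 against 7.57, 9.07 and 9.35, and in WSB 11.5 and 11.3 against 4.93, 5.92 and 6.05. All TM libraries lay below all controls of the same strain in 6 of 8 strains, and overlapped them in B6 and NOD. The mean change was a fall of 1.52 fold (log2 -0.60, SE 0.10; limma adjusted p = 1.22e-05), and 8 of 8 strains were lower. The value lies close to the 1.5 fold limit and dropped under it in 8 of the 48 alternatives (log2 from -0.63 to -0.54). Irf9, its DNA-binding partner, was 1.18 fold lower (adjusted p = 0.00462), under the 1.5 fold limit.

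Ifitm2 (chromosome 7, 140954837 to 140955987), which blocks viral fusion, read 116 and 107 in 129 controls against 73.7, 75.1 and 89.5 with TM, 109 and 97.7 against 56 and 86.2 in B6, 79.6 and 101 against 56.4 and 71.1 in CAST, and 111 and 95 against 55.3, 79.3 and 65.5 in NOD. It read 113 and 115 against 61.4, 57 and 40.4 in NZO, 106, 102 and 101 against 74.1, 66.5 and 58.9 in PWK, and 97.3 and 88.7 against 61.8, 58 and 59.4 in WSB. In these 7 strains the groups did not overlap. In A they did, at 46.4, 112 and 109 against 57.8, 115 and 45.8, where control replicate 1 and TM replicate 2 stood apart from their groups over all genes. The mean fall was 1.53 fold (log2 -0.61, SE 0.10; limma adjusted p = 1.11e-05), and it passed in the fit without the libraries that stood apart. It was under 1.5 fold without A TM replicate 3 (log2 -0.58) or B6 TM replicate 1 (log2 -0.57). Ifitm3, its neighbour, was 1.34 fold lower (adjusted p = 0.000594).

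Dhx58 (chromosome 11, 100694884 to 100704271), the LGP2 helicase, had the largest mean fall, 1.71 fold (log2 -0.77, SE 0.13; limma adjusted p = 8.26e-06), and was lower in 8 of 8 strains. Its values were 1.78 and 0.901 in 129 controls against 0.626, 0.88 and 0.467 with TM, 2.15, 2.1 and 1.02 against 1.23, 1.05 and 1.17 in A, 1.38 and 1.32 against 0.377 and 0.837 in B6, and 2.64 and 1.65 against 1.81 and 1.15 in CAST. They were 1.53 and 1.32 against 1.05, 1.94 and 0.915 in NOD, 1.52 and 2.01 against 0.729, 0.462 and 0.864 in NZO, 2.04, 1.74 and 1.41 against 1.04, 1.31 and 0.978 in PWK, and 1.61 and 2.21 against 0.905, 0.74 and 0.801 in WSB. The groups did not overlap in 5 strains. The gene is low, with 11 to 51 reads a control library, and with a pseudocount of 1 the fall was -0.45 on the log2 scale, under 1.5 fold.

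The other RNA sensors moved otherwise. Ddx58 was 1.23 fold higher with TM (limma adjusted p = 7.1e-05), under the 1.5 fold limit, and higher in 7 of 8 strains. Its largest change was in CAST, from 4.76 and 5.02 to 7.35 and 7.41 (log2 0.5823). That change did not pass within CAST alone (limma adjusted p = 0.0607). Ifih1 did not pass (limma adjusted p = 0.622).

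**Figure D3:**
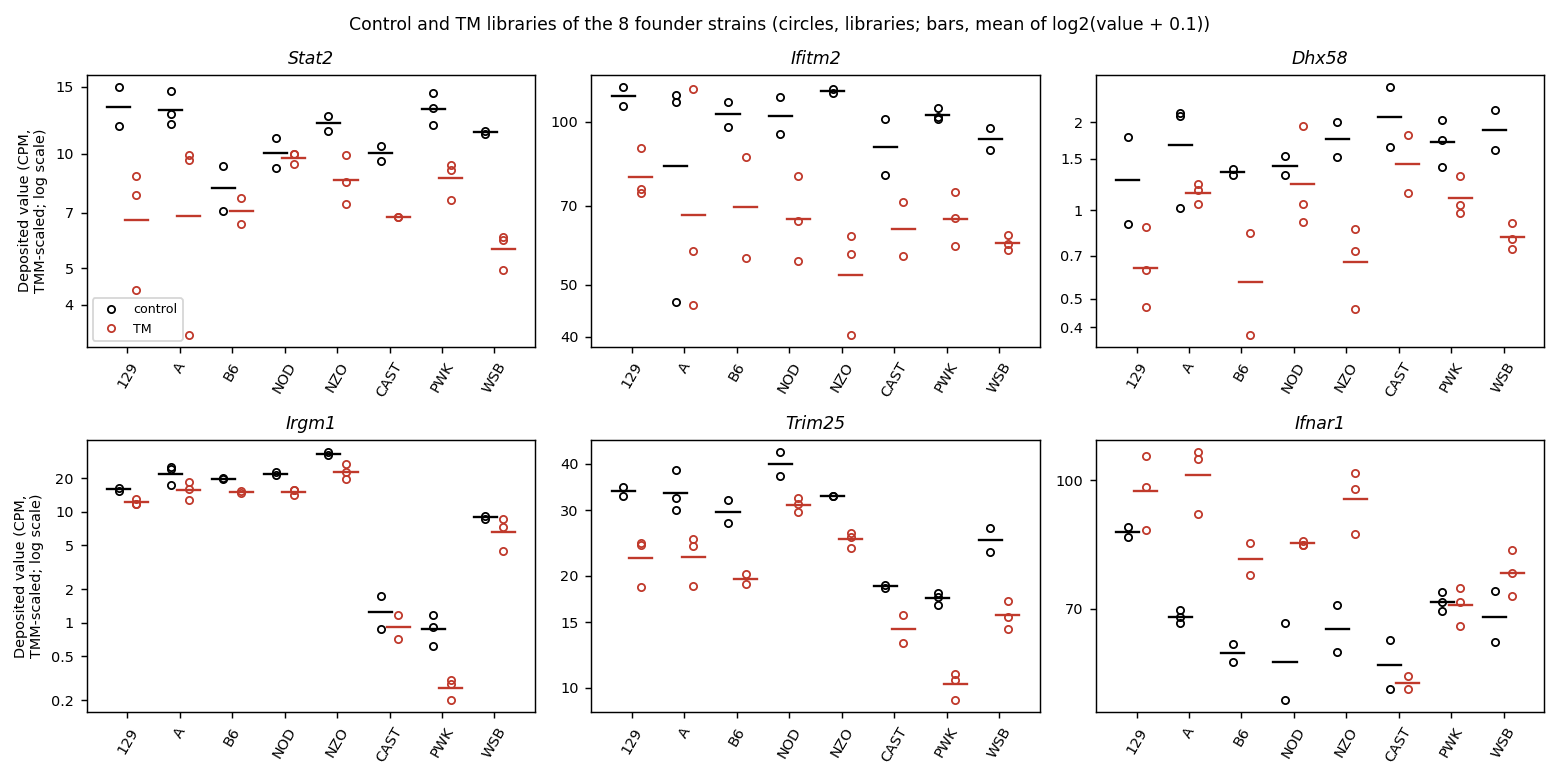
Control (black) and TM (red) values of 6 members in each founder library (circles; CPM, TMM-scaled, log axis), with the mean of log2(value + 0.1) per group as bars. Trim25 is lower with TM in every strain without overlap, while Ifnar1 is higher in A, B6, NOD and NZO and overlaps or differs little in the others.

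Irgm1 and Trim25, which differed between strains in control cells, were also lower with TM, while Ddx58 was higher and Gbp2 did not pass (log2 0.07, limma adjusted p = 0.551). CAST and PWK were the lowest strains for Irgm1 in both conditions. Irgm1 with TM read 13, 11.8 and 11.8 in 129, 18.6, 15.9 and 12.8 in A, 14.6 and 15.2 in B6, 14.1, 15.6 and 15.7 in NOD, 23, 26.8 and 19.7 in NZO, and 8.64, 4.44 and 7.21 in WSB. It read 1.17 and 0.713 in CAST and 0.284, 0.202 and 0.306 in PWK. Its mean was lower in 8 of 8 strains, with a change of -0.58 on the log2 scale (SE 0.09; limma adjusted p = 3.96e-06) that was just under the limit, and the call changed in 15 of the 40 fits that left out a library and 3 of the 8 other alternatives (log2 from -0.64 to -0.43 over all 48). Its change was 1.3 fold in 129 and 2.72 fold in PWK, the ends of the range. The fall in PWK did not pass within PWK alone (limma adjusted p = 0.0148). It did when the spread was estimated over all founder libraries (limma adjusted p = 3.57e-05, where 2.44% of all genes were lowered in PWK). The PWK values with TM lie near the floor, where 1 read stands for 0.0946 in replicate 1 and 0.0611 in replicate 3. Trim25 with TM read 24.5, 18.6 and 24.2 in 129, 24, 18.8 and 25.1 in A, 19 and 20.2 in B6, 31.2, 32.4 and 29.6 in NOD, 25.4, 26.1 and 23.7 in NZO, 15.7 and 13.2 in CAST, 9.27, 10.5 and 10.9 in PWK, and 15.5, 17.1 and 14.4 in WSB. In all 8 strains every TM library was below every control. The fall of Trim25 was 1.45 fold, with the smallest adjusted p among the members (limma adjusted p = 1.71e-10), and stayed under 1.5 fold in all 48 alternatives.

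Both receptor subunits were slightly higher with TM. Ifnar1 (chromosome 16, 91485238 to 91507441) read 85.5 and 87.7 in 129 controls against 87.1, 98 and 107 with TM, 67.4, 69.7 and 68.4 against 106, 91.1 and 108 in A, 60.4 and 63.5 against 84 and 76.9 in B6, and 54.4 and 67.3 against 83.6, 84.5 and 83.6 in NOD. It read 70.7 and 62.1 against 102, 97.5 and 86.2 in NZO, 56 and 64.3 against 56 and 58.2 in CAST, 71.3, 69.6 and 73.4 against 66.7, 71.4 and 74.2 in PWK, and 63.9 and 73.5 against 72.6, 77.2 and 82.3 in WSB. The groups were apart in A, B6, NOD and NZO and overlapped in 129, CAST, PWK and WSB. The mean rise was 1.21 fold (limma adjusted p = 9.76e-07), and Ifnar2 rose by 1.26 fold (adjusted p = 8.61e-08) in 8 of 8 strains, both under the 1.5 fold limit. Irf2, chosen after its values were seen, had the largest mean rise, 1.46 fold (limma adjusted p = 5.14e-08), in 8 of 8 strains. Irf2 is known as an antagonist of Irf1 at interferon-stimulated promoters. The change of Irf7 did not pass, and with TM it read 0.834, 1.01 and 0.519 in 129, 1.44, 1.05 and 1.11 in A, 0.943 and 0.576 in B6, 0.852 and 0.439 in CAST, 1.05, 1.43 and 0.458 in NOD, 1.19, 0.832 and 1.12 in NZO, 1.04, 1.41 and 0.856 in PWK, and 1.11, 0.74 and 2.4 in WSB (limma adjusted p = 0.695).

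Tested strain by strain, 1 member call was raised and 5 were lowered. Trim25 fell in B6 (1.52 fold, limma adjusted p = 0.000564, against 3.22% of all genes lowered) and PWK (1.7 fold, adjusted p = 0.000337). In PWK, where 6.36% of all genes were raised and 4.30% lowered, Ifitm2 (1.55 fold) and Stat2 (1.52 fold) also fell and Irf2 rose (1.56 fold). Rnf213, a large ubiquitin ligase, fell in WSB from 53.1 and 54.9 to 20.8, 28.4 and 25 (2.19 fold, limma adjusted p = 0.00272, against 4.20% of all genes lowered). In 129, A, CAST, NOD and NZO no member passed, where 0.315%, 0.346%, 2.54%, 1.45% and 0.320% of all genes were raised and 0.00787%, 0.00786%, 0.478%, 0.165% and 0.00780% lowered. In B6 5.04% and in WSB 2.85% of all genes were raised. Without NZO TM replicate 3 alone there were 5 raised and 11 lowered calls. The share of all genes in that fit was not counted, so this rise in calls is not read as particular to the members. Raised calls were 2 without B6 control replicate 2 or NOD control replicate 1, 3 without CAST or NOD control replicate 3, and 0 without PWK control or TM replicate 1.

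No member passed the test of a TM change that differed between strains, where 0.174% of all genes did (23 of 13197, limma F test). The smallest value was that of Ifnar1 (limma adjusted p = 0.166, from 0.0239 to 0.344 over the 48 alternatives), the only member with an unadjusted p under 0.05, and edgeR also called 0. Without WSB control replicate 3, Parp14, an ADP-ribosyltransferase, passed (limma adjusted p = 0.00514). The members that fell with TM fell beside 6 of the 12 listed myeloid markers, which also fell with TM in the founders. The summed myeloid level was 8.23 to 71.5 in controls and 6.43 to 53.6 with TM. Passing markers were 0 of 10 for fibroblasts, 0 of 5 for endothelial and 0 of 4 for epithelial cells. Their median changes were -0.29, -0.09 and -0.26 on the log2 scale, beside -0.59 for the myeloid markers. The part of these cell types in the falls was not tested.

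**Figure D4:**
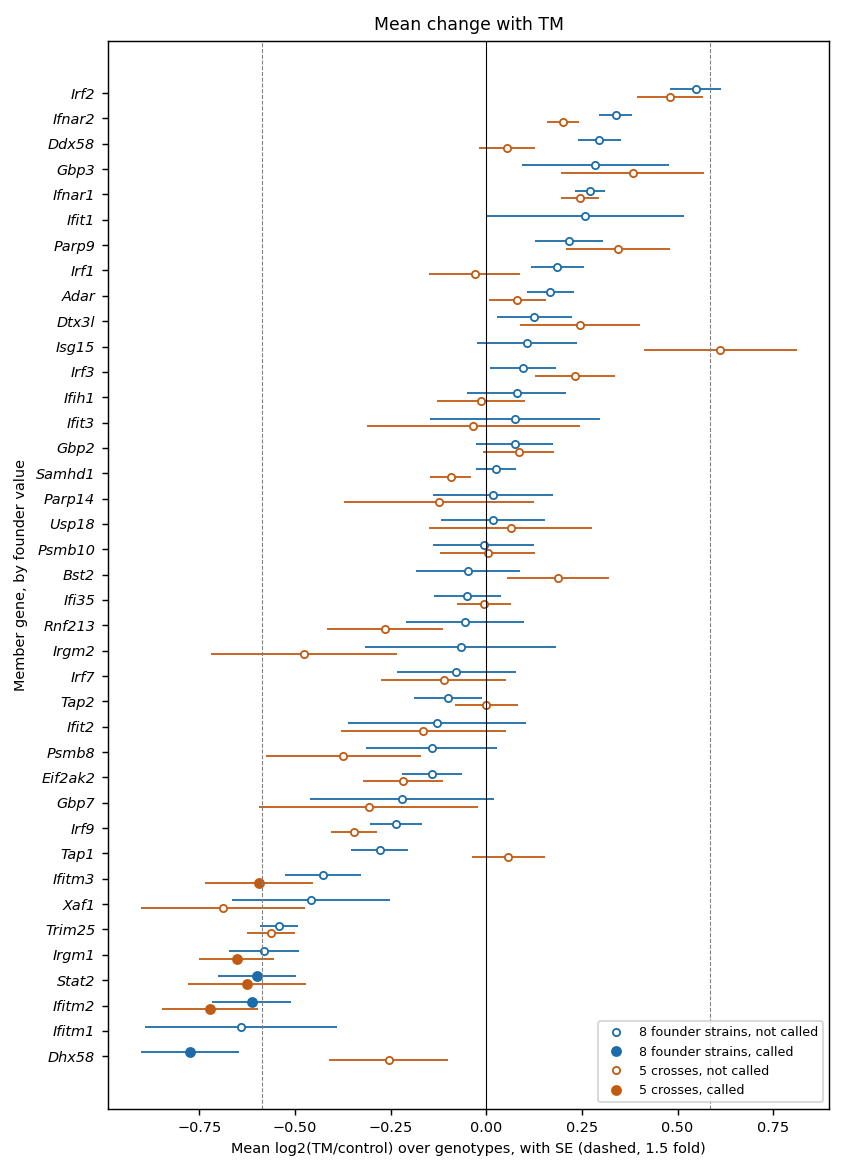
Mean log2(TM/control) with its SE for each member over the 8 founder strains (blue) and the 5 crosses (orange), filled where the FDR was under 1% and the change at least 1.5 fold. The members run from -0.77 (Dhx58) to 0.55 (Irf2) in the founders, and filled points are all on the side of a fall.

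The crosses, read from separate cultures and tables, gave the same comparisons with B6 as 1 parent. Of the 37 members, 0 rose and 4 fell with TM over the 5 crosses (10.8%, against 4.95% raised and 5.54% lowered over all genes): Ifitm2 by 1.65 fold (limma adjusted p = 5.56e-05), Irgm1 by 1.57 fold (adjusted p = 7.35e-06), Stat2 by 1.54 fold (adjusted p = 0.00198) and Ifitm3 by 1.51 fold (adjusted p = 0.00137). At an unadjusted p under 0.05, 6 were higher and 8 lower. In the crosses 9 members passed an FDR of 1% at any size (Ifitm2, Ifitm3, Ifnar1, Ifnar2, Irf2, Irf9, Irgm1, Stat2 and Trim25). All 9 were among the 12 of the founders, with the same sign. Shares of all genes at these limits, and with the same sign in both sets, were not counted. The counts are therefore not read as particular to the members. In the crosses 0 of the 8 listed myeloid markers passed, although their median change was -0.70 on the log2 scale, beside -0.59 in the founders. Their sum was 5.79 to 31.6 in controls and 3.13 to 12.2 with TM. Of 10 fibroblast markers 1 passed, lowered, with a median change of -0.20. The part of these cells in the falls of the crosses was not tested. Dhx58 did not pass in the crosses (1.19 fold lower, limma adjusted p = 0.184), and its difference between the sets was not tested. The 0 raised became 1 without xNZO control replicate 3 or xNZO TM replicate 1.

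In the crosses Irgm1 read 15, 12.5 and 13.2 in x129 controls against 11.2, 8.72 and 7.96 with TM, 16.4, 14.6 and 15.9 against 13.2 and 11.3 in xNOD, 16.9, 16.5 and 16.2 against 12.5, 12.1 and 10.2 in xNZO, 8.16 and 7.44 against 3.48, 4.99 and 4.18 in xCAST, and 9.75, 13.7 and 16.2 against 8.9, 7.36 and 4.35 in xWSB. Every TM library was below every control of its cross in 5 of 5 crosses. Ifitm2 read 95.7, 87.2 and 96 in x129 controls against 61.3, 54.1 and 53.4, 83.9, 77.3 and 80.1 against 74.1 and 43.6 in xNOD, 104, 87.4 and 65.8 against 60.5, 58 and 63.3 in xNZO, 85.1 and 79.6 against 43.3, 65.6 and 36.3 in xCAST, and 146, 95.6 and 82.8 against 84.9, 42.3 and 32.7 in xWSB. Only in xWSB did these overlap. Stat2 read 7.07, 7.87 and 6.21 against 5.98, 3.52 and 6.12 in x129, 5.67, 6.16 and 7.95 against 1.77 and 3.96 in xNOD, 6.14, 7.52 and 11 against 6.73, 4.54 and 6.55 in xNZO, 5.38 and 8.09 against 4.2, 3.75 and 4.58 in xCAST, and 5.5, 9.7 and 6.27 against 3.05, 7.36 and 7.8 in xWSB. It overlapped in xNZO and xWSB, and the fall was under 1.5 fold in 9 of 36 alternatives.

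Within single crosses 1 member call was raised and 3 were lowered. In x129, where 4.88% of all genes were raised and 1.36% lowered, Irf2 rose 1.75 fold and Ifitm2 and Ifitm3 fell 1.65 and 1.53 fold. In xNOD, where 3.69% were raised and 4.60% lowered, Trim25 fell 1.79 fold (limma adjusted p = 0.00756). No member passed in xCAST, xNZO or xWSB, where 2.52%, 1.44% and 0.185% of all genes were raised and 1.20%, 0.152% and 0.0161% lowered. Without xCAST TM replicate 3 there were 2 raised and 7 lowered, without either xNOD TM library 5 lowered, and without x129 control replicate 1 there were 0 raised. No member passed the test of a TM change that differed between crosses (0.0547% of all genes did, limma F test), and edgeR called 0. An unadjusted p under 0.05 was seen for 3 members (Samhd1, Irf1 and Irf2), and the share of all genes at that limit was not counted.

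Without TM, 6 of 37 members differed between crosses (16.2%, against 20.1% of all genes, limma F test): Trim25, Gbp2, Ifnar2, Tap2, Irgm1 and Ifitm3. With the libraries that stood apart from their groups left out, 11 differed. The share of all genes in that fit was not counted, so the 11 is not read as particular to the members. Irgm1, lowest among the founders with a cross in CAST, was lowest in xCAST, whose 2 controls lay below all others (limma adjusted p = 0.00289). The difference was lost without xCAST control replicate 2 (adjusted p = 0.0224) or replicate 3 (adjusted p = 0.0419). Measured from the mean over 5 genotypes, Irgm1 was -3.00 in CAST and -0.72 in xCAST on the log2 scale, where the mean of the B6 and CAST levels would lie at -0.70. Trim25 read 9.37 and 10.7 in xCAST, below 18.6 to 32.1 in the other crosses (limma adjusted p = 1.37e-05). It was -0.98 in xCAST, lower than the -0.29 of the mean of B6 and CAST. Ddx58, lowest in CAST, read 7.58 and 7.94 in xCAST against 8.48 to 12.8 elsewhere, and did not pass (limma adjusted p = 0.157), but did without the libraries that stood apart (adjusted p = 0.00515).

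Gbp2 read 6.02 and 5.28 in xCAST and 6.53, 7.02 and 7.9 in xWSB, above 2.61, 2.84 and 3.62 in xNOD, 2.66, 1.98 and 2.49 in xNZO, and 1.42, 2.05 and 1.71 in x129 (limma adjusted p = 1.88e-05). The high level in xCAST went with that of CAST, but xWSB was the highest cross while WSB was among the lowest strains, and x129 was the lowest cross while 129 was above B6. Relative to the mean of 5 genotypes, Gbp2 was -0.72 in WSB and 1.02 in xWSB, and 0.51 in 129 and -0.98 in x129. xWSB also had the highest levels of Ifnar2 (43.8, 38 and 42.3 against 23.4 to 28.4), Ifitm3 (121, 82.3 and 81.4 against 46.5 to 67.2) and Tap2 (27.9, 20.2 and 17.2 against 7.76 to 17.8, overlapping xCAST), and 2 of its libraries, control replicate 1 and TM replicate 1, stood apart over all genes. The myeloid sum of the xWSB controls was 8.41 to 11.4, within the 5.79 to 31.6 of all crosses. Their epithelial sum, over 3 of 5 markers listed, was 3.39 to 9.13, below the 26.5 to 63.2 of the other crosses, and its part in these levels was not tested.

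**Figure D5:**
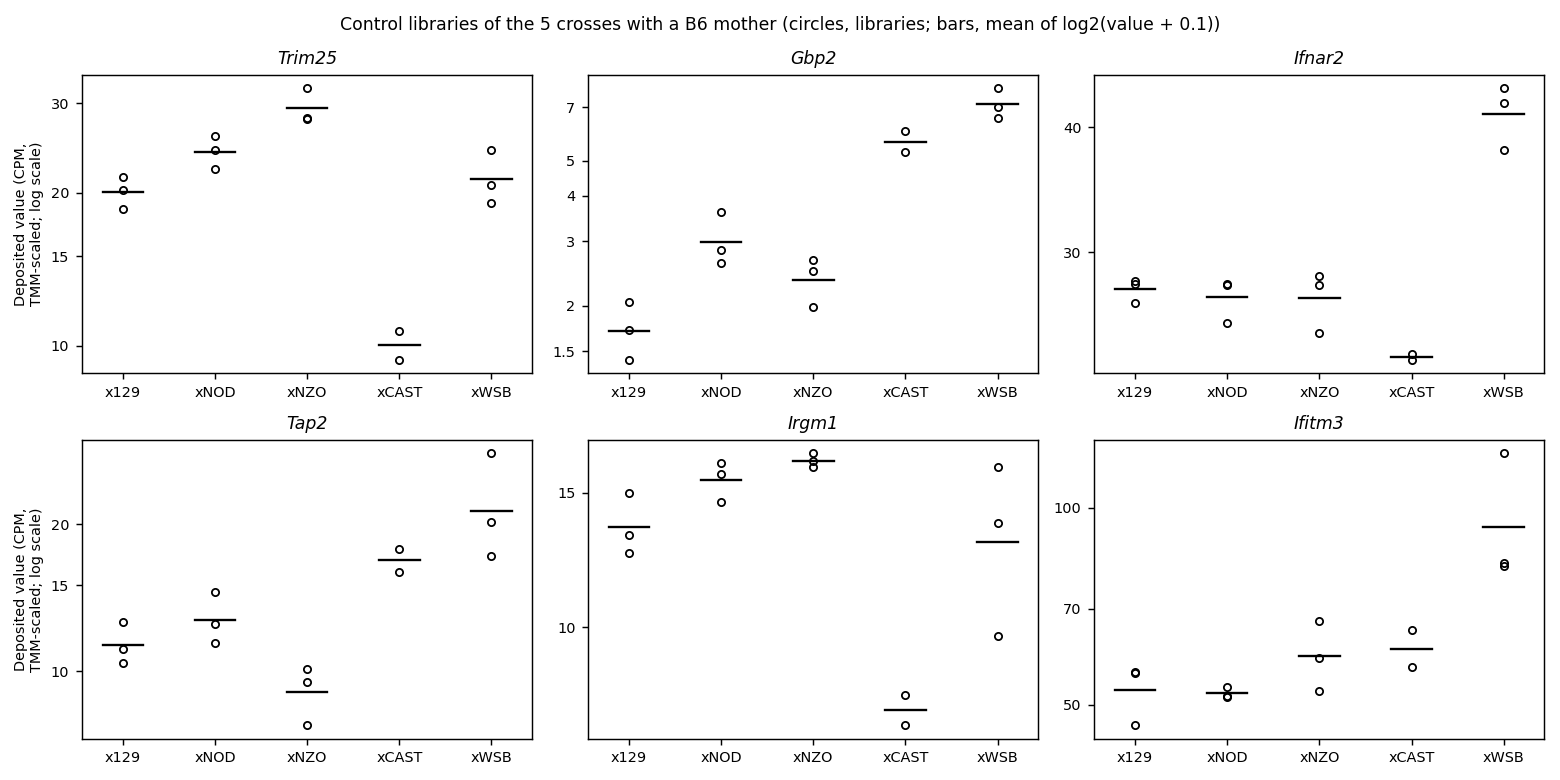
Control values of the 6 members that differed between the crosses, in each F1 library (circles; CPM, TMM-scaled, log axis), with the mean of log2(value + 0.1) per cross as bars. xCAST is lowest for Irgm1 and Trim25, and xWSB is highest for Gbp2, Ifnar2, Tap2 and Ifitm3.

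Other genes of the interferon pathway came from 4 lists with 79 genes in all, of which 59 had values for the strains and 53 for the crosses. Between strains 25 of the 59 differed without TM (35.0% of all genes did), and between crosses 12 of the 53 (20.1% of all genes). With TM, 11 rose and 4 fell over the founders, against 6.04% and 5.41% of all genes, and 5 rose and 5 fell over the crosses, against 4.95% and 5.54%. The 3 genes of the MHC class I list that rose were Calr, Canx and Pdia3, which are known as chaperones and a folding enzyme of the ER. The largest changes in the founders were those of Pdia3, a disulfide isomerase that also serves MHC class I folding (1.95 fold higher, limma adjusted p = 4.93e-14), Ptpn2, a phosphatase that dampens JAK-STAT signalling (1.87 fold higher, adjusted p = 1e-12), and H2-T23, an MHC class I gene whose fall of 1.87 fold (adjusted p = 0.000538) can share reads with its paralogs. By list, the JAK-STAT genes had 1 up and 1 down of 10, the nucleic acid sensing genes 3 up and 0 down of 11, the further antiviral genes 4 up and 2 down of 25, and the MHC class I pathway 3 up and 1 down of 13. In neither set did any of them pass the test of a TM change that differed between genotypes.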

How the data were processed

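RNA from primary MEFs of 8 founder strains and 5 crosses was read single-end, and 68 libraries were used. Per the study's methods and processing notes, the authors trimmed reads with Trimmomatic, aligned them with TopHat 1.4.1 to strain-specific genomes built on GRCm38 (mm10), scaled them by TMM in edgeR and removed libraries that did not group with their condition. The deposited values are a signal named FPKM in the headers, but whole multiples of 1 step per library showed that they are TMM-scaled CPM with no division by length. Whole reads, within 0.05 read, were recovered in 66 of 68 libraries (not in PWK TM replicate 2 and WSB TM replicate 1, which the fits on reads leave out). The planned design assumed FPKM, and its test was kept.

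Values were tested as log2(value + 0.1) with limma 3.58.1 (R 4.3.3, empirical Bayes with trend) over all genes at 0.5 or more in at least 2 libraries, with Benjamini-Hochberg adjustment over all genes tested, an FDR of 1% and 1.5 fold. Fold changes are on that scale and understate those of low genes. Founders and crosses were fitted apart. Comparisons were the strain effect in controls (F test), each strain against the other 7, TM against control within a genotype and in the mean over genotypes, and the interaction. Both limma and edgeR 4.0.16 fits were tested on simulated data. Ensembl identifiers were matched to symbols, and positions are those of GRCm38. No column of other samples was present (0).

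The members and lists were chosen with earlier results of these data known. Founder control values are given for the 8 members with the smallest adjusted p between strains, as ranges outside CAST and PWK for Gbp3 and Gbp7. Control and TM values in every founder library are given for those called in the mean TM change over founders (at most 4 in each direction), and for Ifnar1, Stat2 and Irf7. Library values of Ifih1, Isg15, Irf1, Irf3, Tap1, Rnf213 and Ifitm1 in founders, and of Ifnar2, Tap2 and Ifitm3 in crosses, were chosen after values were seen. Since all cultures of a genotype come from 1 pool of cells, p-values measure the spread between cultures. The alternatives were edgeR on recovered reads, scaling by median of ratios, a pseudocount of 1, a filter on the mean (2 or more) or none, limma without its trend, a replicate block, 1 fit over all libraries, leaving out each library, and, chosen after seeing the data, leaving out 6 libraries with an SD over 0.4 (log2) around their group mean. Each set lost only its own: A control replicate 1, A TM replicate 2 and NZO TM replicate 3 in founders. In crosses they were xNZO control replicate 3, xWSB control replicate 1 and xWSB TM replicate 1. For the same spread, this SD is smaller in groups of 2 than of 3. The 2 WSB controls, at 0.389 each, were kept.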

Additional observations from a re-analysis of the deposited data

How the results depend on the processing

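Low members rest on few reads, 2 to 27 for Usp18 and 1 to 43 for Ifit2 in founder controls, and groups of 2 or 3 libraries limit every test. Of the counts of calls, 481 values under an alternative stayed within 1.5 times the reported count and 43 did not. With 1 library left out, strain differences in controls (11) ran from 6 to 17, strains against the other 7 from 12 to 21 higher (15) and from 6 to 22 lower (12), and the founder interaction (0) from 0 to 1. The falls within founder strains (5) were 3 with a pseudocount of 1, with no trend and with edgeR, 11 without the 6 libraries of largest spread, and 4 to 11 with 1 library left out. The rises (1) were 0 with no trend, 2 in 1 fit over all libraries, 5 without the 6 libraries, and 0 to 5 with 1 left out. The mean falls over founders (3) were 1 with a pseudocount of 1 and 2 to 5 with 1 library left out. Over crosses, the falls (4) were 2 with a pseudocount of 1 and 3 to 5 with 1 left out, and the rises (0) were 1 with the replicate block, 1 without the libraries of largest spread, and 0 to 1 with 1 left out. Within crosses, the falls (3) were 1 with no trend, 7 without the libraries of largest spread and 2 to 7 with 1 left out, and the rises (1) were 3 and 0 to 2. Differences between crosses (6) were 11 without the libraries of largest spread and 5 to 7 with 1 left out. Shares of all genes in the fits that left out libraries were not counted, so these moves are not read as particular to the members. Their cause was not tested.

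Among the 13 members given library by library, changes in sign were seen for Usp18 and Irf7. The mean TM change of Usp18 (0.02 in founders, log2) was -0.01 with the replicate block, -0.02 with edgeR and -0.07 to 0.10 with 1 library left out, and in crosses (0.06) it was -0.00 with a pseudocount of 1, -0.01 with edgeR and -0.07 to 0.20 with 1 library left out (-0.07 without xCAST control replicate 2). That of Irf7 in founders (-0.08) ran from -0.17 to 0.01 with 1 library left out (0.01 without WSB control replicate 2).

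For control and TM libraries of the same replicate number, the correlation of deviations ran from -0.532 to 0.312 over 29 pairs. Of these, 7 were over 0.1, among them those of xWSB (0.259, 0.161 and 0.121). Deviations around means of 2 or 3 libraries depend on each other, so the values cannot decide whether shared numbers pair the libraries. With the replicate block, 15 members differed between strains, 17 strain contrasts were higher and 11 lower, 1 change within a founder strain was raised and 7 lowered (B6 and CAST could not be fitted), 0 members rose and 3 fell in the mean over founders, 7 differed between crosses, 1 rose and 4 fell within crosses, 1 rose and 3 fell in the mean over crosses, and 0 passed either interaction.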
